A study of Mus musculus with 11 samples.

Results

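The 33 genes described here code for the receptors of glutamate and for the proteins that anchor them behind the synapse: 4 AMPA, 7 NMDA and 5 kainate receptor subunits, 1 delta receptor, 7 metabotropic receptors and 9 scaffold proteins. They were chosen by name and function, not by their values, and each matched 1 of the 52550 gene identifiers in the count table. They were measured by poly(A) RNA sequencing in 11 libraries from the shell of the nucleus accumbens, the ventral part of the striatum, of 8-week-old mice, whose mixed background was CBA/C57BL6J/129svEmx. Punches were taken from frozen sections 300 µm thick. The study was designed around lower signalling through Rarb, a retinoic acid receptor, in the presence of a mutation that causes Huntington disease. The design text names the R6/1 transgene and the Rarb allele only for 1 sample, of genotype R6/1 0/0 with Rarb+/+, which failed quality control among the 12 collected. The text numbers that sample 10 and gives it an animal code that is not in the table, while the library with label code 10 is m44, so the numbers in the design text and the label codes were not matched. The R6/1 transgene expresses the first exon of human huntingtin with a long stretch of CAG repeats. The labels give each of the other 11 libraries an animal code, such as m57, and no genotype. No groups could therefore be compared, and each gene is described by its level in single libraries or by the lowest, the median and the highest of the 11.

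Glutamate is the main excitatory transmitter of the brain. AMPA receptors carry the fast current, NMDA receptors admit calcium and start synaptic plasticity, kainate receptors act on both sides of the synapse, and metabotropic receptors signal through G proteins. The scaffold proteins of the PSD-95, Shank and Homer families hold these receptors in the postsynaptic density and tie them to one another and to the cytoskeleton. The projection neurons that make up most of the striatum make GABA but receive glutamate from cortex, thalamus, amygdala and hippocampus, so these receptors receive their main inputs.

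Between 24840981 and 48825783 reads per library were assigned to genes (median 36252983). The floor of 3 counts was 0.0619 to 0.133 CPM (counts scaled to library size, computed here). Markers of projection neurons were abundant in every library, with 2559 to 5906 CPM summed over 10 genes, and so was the cortical vesicular glutamate transporter gene Slc17a7, at 636 to 2118 CPM. With bulk tissue, fewer cells of a type and less RNA per cell cannot be told apart. Of the 33 genes 31 passed a filter that asks for 1 CPM or more in 3 libraries together with a median of 10 or more counts. The exceptions were Grin3b and Grm6.

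Levels of different genes were compared only as CPM per kilobase of exon. On that scale the order across all classes was led by Gria1 (median 88.3 CPM per kb), Dlg4 (59.1), Grik5 (56.8), Grin1 (46.6) and Dlg3 (44.6). With the length of the longest transcript in place of all exons, the same 5 genes led, with Dlg4 first and Grin1 and Gria1 after it. Summed by class, the 9 scaffold genes had a median of 216 CPM per kb (185 in m101 to 259 in m57) and the 4 AMPA genes 146 (123 in m74 to 203 in m57). The kainate genes summed to a median of 86.7, the NMDA genes to 80.1, the metabotropic genes to 52.2 and Grid1, the delta receptor gene, was at 13.6 CPM per kb. The metabotropic sum varied most between libraries of the classes with several genes, from 35.5 in m74 to 74.4 in m57, a ratio of 2.09.

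**Figure D1:**
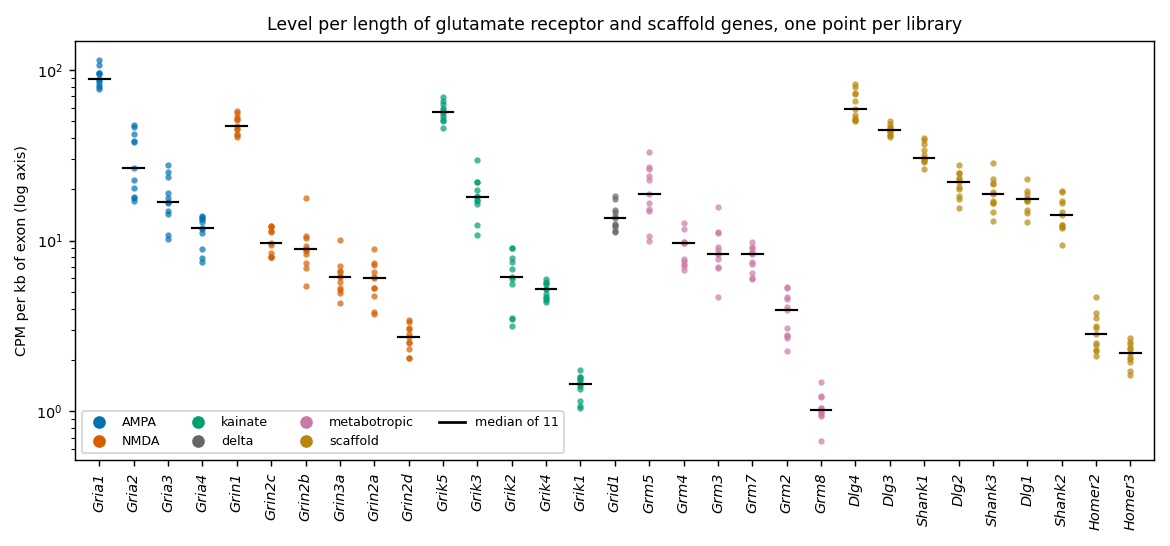
Level of each of the 31 genes past the filter in CPM per kb of exon, on a log axis. Each point is 1 of 11 libraries, the bar is their median, and colours mark the class; Gria1 stands highest at a median of 88.3 and Grm8 lowest at 1.02.

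The sequences around 4 transcription start sites are shown because the genes stand for the patterns described below. Gria2, Grik2 and Grik3 are AMPA and kainate subunit genes that rose along a measure of long against short transcripts, and Grin1, the obligatory NMDA subunit gene, varied little. Each window runs from 250 bases before to 50 bases after the start in RefSeq on GRCm38.p6, and is given 5′ to 3′ on the strand of the gene. Capitals mark GGGCGG, the Sp1 GC box, on either strand.
Gria2, chr3:80802786-80803085, minus strand: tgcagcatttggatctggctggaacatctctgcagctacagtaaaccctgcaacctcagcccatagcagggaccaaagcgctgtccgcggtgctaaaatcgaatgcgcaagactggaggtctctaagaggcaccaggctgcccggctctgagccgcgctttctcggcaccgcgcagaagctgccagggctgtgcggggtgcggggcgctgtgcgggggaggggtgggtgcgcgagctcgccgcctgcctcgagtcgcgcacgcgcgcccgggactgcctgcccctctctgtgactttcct
Grik2, chr10:49788705-49789004, minus strand: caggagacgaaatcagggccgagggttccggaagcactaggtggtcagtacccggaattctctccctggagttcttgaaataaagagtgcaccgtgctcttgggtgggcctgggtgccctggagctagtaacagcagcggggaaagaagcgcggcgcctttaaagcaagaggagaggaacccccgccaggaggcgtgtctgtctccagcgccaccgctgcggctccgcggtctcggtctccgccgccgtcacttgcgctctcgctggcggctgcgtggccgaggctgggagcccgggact
Grik3, chr4:125490446-125490745, plus strand: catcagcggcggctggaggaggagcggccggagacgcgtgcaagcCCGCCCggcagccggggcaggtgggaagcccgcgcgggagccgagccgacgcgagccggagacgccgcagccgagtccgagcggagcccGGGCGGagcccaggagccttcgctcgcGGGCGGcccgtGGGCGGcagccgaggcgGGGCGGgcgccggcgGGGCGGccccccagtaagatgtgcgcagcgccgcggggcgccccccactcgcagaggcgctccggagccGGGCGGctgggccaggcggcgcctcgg
Grin1, chr2:25319138-25319437, minus strand: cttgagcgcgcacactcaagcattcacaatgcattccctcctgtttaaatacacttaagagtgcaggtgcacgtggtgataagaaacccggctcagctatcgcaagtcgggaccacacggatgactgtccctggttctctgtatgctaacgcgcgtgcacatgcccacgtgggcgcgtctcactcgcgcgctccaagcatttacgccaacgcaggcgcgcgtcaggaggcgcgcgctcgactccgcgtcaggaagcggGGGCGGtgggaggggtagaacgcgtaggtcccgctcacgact
The Grik3 window was 82% GC with 50 CpG pairs and held 7 GC boxes. The Grin1 window had 60.7% GC with 33 CpG pairs and 1 GC box. The Gria2 and Grik2 windows were 65.7% and 64.7% GC, each with 26 CpG pairs and no GC box. All 4 were richer in both than the median of 32851 RefSeq promoters, 52.7% GC and 7 CpG pairs.

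RefSeq gave a promoter for 22 of the 33 genes and a single one for 15, which were searched on both strands for 5 motifs. GGGCGG was in 9 of the 15 (Grik3, Grik4, Grik5, Grin1, Grin2c, Grm2, Grm3, Homer3 and Shank3) and in 35.7% of all promoters. AGGTCA, the single recognition site of retinoid receptors, was in 2 of the 15 (Grin2c and Homer3) and in 16.3% of all. Its direct repeat spaced by 5 bases, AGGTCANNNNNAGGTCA, which contains the single site, was in 0 of the 15 and in 0.00913% of all. TGACGTCA, the cAMP response element, was in 0 of the 15 and 1.79% of all, and TATAAA was in 1 (Grin3b) and 13.6% of all.

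AMPA receptors are tetramers of the products of Gria1 to Gria4, and the edited product of Gria2 makes them impermeable to calcium. Gria1 (chromosome 11, 57011387 to 57330244, plus strand, mm10) was the highest in every library and its range did not overlap that of Gria2. Per kb of exon the medians were 88.3 CPM for Gria1, 26.5 for Gria2, 16.9 for Gria3 and 11.9 for Gria4. Each gene was above the next in 11 of 11 libraries, although the ranges of Gria2 and Gria3 and of Gria3 and Gria4 overlapped.

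Gria2 (chromosome 3, 80681450 to 80802835, minus strand) was among the most variable of the 33 genes and Gria1 among the steadier ones. Gria2 was at 736 CPM in m57, 722 in m73, 659 in m47, 596 in m89 and 589.8 in m115. It was at 412 CPM in m101, 352 in m44, 317 in m83, 279 in m49, 276 in m74 and 267 in m61. Its highest value was 2.76 times the lowest. The gap between the fifth and the sixth library was under 0.5 of the range, the limit set for separate clusters, which no gene past the filter met. Gria1 ran from 465 CPM in m101 to 693 in m57 (median 534), a ratio of 1.49. The ratio of Gria2 to Gria1 CPM, which can be compared between libraries but not read as a ratio of molecules, was lowest in m49 (0.434), had a median of 0.886 and was highest in m73 (1.51). Gria3 ran from 100.4 CPM in m49 to 273 in m57 (median 167) and Gria4 from 46.99 in m61 to 87.6 in m47 (median 75.2). The libraries m61, m74 and m49 were the 3 lowest for Gria4, and m74 and m49 the 2 lowest for Gria3.

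NMDA receptors pair the Grin1 product, which binds glycine, with subunits from the Grin2 genes, which bind glutamate, or from the Grin3 genes. Grin1 (chromosome 2, 25291181 to 25319187, minus strand) was well above the others at a median of 46.6 CPM per kb. Grin2c (9.65) and Grin2b (8.90) came next, and Grin2c was the higher in 6 of 11 libraries. Grin3a (6.10) and Grin2a (6.07) were as close, with Grin3a higher in 8 of 11, while Grin2d was at 2.71. With the longest transcript in place of all exons Grin3a moved to the second place, so the order of the genes between Grin1 and Grin2d depends on the length used.

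Grin1 varied little, from 394 CPM in m47 to 557 in m57 (median 452). Grin2b, which codes for the subunit that prevails early in development and stays abundant in the forebrain, had 1 library far above the rest. It was at 439 CPM in m57, 265 in m115 and 256 in m47, with a median of 221, and the lowest was 134 CPM in m101. Its spread between libraries (the biological coefficient of variation, in which genotype, animal, dissection and library differences are held together) was 0.303, and 0.195 without m57. Grin3a showed the same library apart, at 124 CPM in m57 against 52.7 to 86.6 CPM in the other 10, and its spread of 0.230 became 0.152 without it.

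Grin2a, whose product joins synapses as they mature, ran from 66.2 CPM in m49 to 161 in m57 (median 109). The ratio of Grin2a to Grin2b CPM was 0.320 in m49, had a median of 0.461 and was highest in m101 (0.699), so the library with the lowest Grin2b had the highest ratio. Grin2c ran from 40.2 to 61.05 CPM and Grin2d from 13.6 to 22.8 CPM. Grin3b had 0 counts in m115, m47, m73 and m61 and at most 24 counts, in m83 (0.527 CPM). Of its exon sequence 32.1% is shared with Tmem259 on the other strand, and the strand setting of the counting is not given, so even these reads are uncertain.

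Kainate receptors are built from the products of Grik1 to Grik3, with Grik4 and Grik5 adding high affinity. Grik5 was the highest at a median of 56.8 CPM per kb, Grik3 followed at 18.1, and neither overlapped its neighbours. Grik2 (6.11) and Grik4 (5.18) overlapped, with Grik2 higher in 7 of 11 libraries, and Grik1 was lowest at 1.44. The high-affinity subunit genes varied little, with Grik5 between 235 CPM in m47 and 359.8 in m44 (median 293) and Grik4 between 26.0 in m73 and 35.5 in m83 (median 30.9). Grik2 and Grik3 varied more. Grik2 (chromosome 10, 49094833 to 49788766, minus strand) was at 120.3 CPM in m89, 119.8 in m57 and 105 in m73, and at 46.6 in m74, 45.9 in m49 and 42.0 in m61. Grik3 (chromosome 4, 125490700 to 125714173, plus strand) was at 266 CPM in m57, 198 in m49 and 197 in m89, and lowest at 97.0 in m61. The libraries m89 and m57 were thus among the top 3 for both, while m49 was near the bottom for Grik2 and second for Grik3.

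Grid1, the delta receptor gene, whose product bridges synapses through cerebellins, ran from 66.7 CPM in m73 to 109 in m49 (median 81.0). Its spread of 0.166 lay below the median of all genes tested, 0.201.

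Among the metabotropic genes Grm5, whose product couples to phospholipase C and is abundant in striatal projection neurons, was highest in every library, at a median of 18.7 CPM per kb. Genes of presynaptic and glial receptors followed, with Grm4 at 9.66, Grm3 at 8.40, Grm7 at 8.33 and Grm2 at 3.92. Grm4 was above Grm3 in 7 of 11 libraries and Grm3 above Grm7 in 7 of 11. Grm8 was at 1.02, and Grm6, known as the receptor of retinal bipolar cells, had 0 counts in all 11 libraries, which allows at most the floor of 0.0619 to 0.133 CPM.

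Grm5 (chromosome 7, 87584168 to 88134907, plus strand) was at 338 CPM in m57, 275 in m73, 269 in m47, 245 in m89 and 233 in m115. It was at 192 CPM in m44, 170.1 in m61, 157 in m101, 153 in m83, 109 in m49 and 102 in m74. These are the same 5 libraries on top as for Gria2. Grm3, made by glia as well as neurons, ran from 14.3 CPM in m101 to 48.2 in m57 (median 25.6), the widest ratio of the 31 genes at 3.37. Grm4, a presynaptic receptor that lowers release, ran from 40.0 CPM in m101 to 76.1 in m44 (median 57.7). Grm2 was highest in m89 (26.2 CPM) and m83 (25.9) and lowest in m115 (11.04), an order unlike that of Grm5. Grm7 ran from 35.2 to 57.9 CPM and Grm8 from 6.65 to 14.8 CPM.

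The scaffold class was led by Dlg4, which codes for PSD-95, at a median of 59.1 CPM per kb, then Dlg3 (SAP102) at 44.6, Shank1 at 30.6 and Dlg2 (PSD-93) at 21.9. Shank3 (18.8), Dlg1 (SAP97, 17.4) and Shank2 (14.1) overlapped one another, and Homer2 (2.85) and Homer3 (2.19) were lowest. With the longest transcript the neighbours Shank1 and Dlg2, and Shank3 and Dlg1, changed places.

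Dlg4 (chromosome 11, 70016942 to 70047522, plus strand) was at 1090.4 CPM in m61, 1060 in m83, 976 in m44 and 964 in m49. It was at 872 CPM in m57, 783 in m89, 722 in m74, 695 in m101, 678 in m115, 675 in m47 and 663 in m73. The 3 lowest libraries for Dlg4 were among the 5 highest for Gria2. Dlg3 varied least of all, from 237 CPM in m89 to 295 in m49 (median 260.4), with a spread of 0.0653 at percentile 1.02 of the genes tested.

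The Shank proteins form the deeper layer of the density. Shank1 ran from 277 CPM in m101 to 419.6 in m57 (median 322) and Shank3 from 119 in m101 to 262 in m57 (median 173). Shank2 was lowest in m61 (102 CPM) and highest in m57 (209.6), close to m73 (208.8). The ratio of Shank2 to Shank3 CPM was lowest in m44 (0.635), had a median of 0.892 and was highest in m73 (1.38). Homer proteins link group I metabotropic receptors to Shank: Homer2 ran from 26.6 CPM in m74 to 58.9 in m57 and Homer3 from 5.60 in m73 to 9.22 in m49. Of the exon sequence of Homer3, 25.4% is shared with Ddx49 on the other strand.

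Among genes past the filter, the 31 varied between libraries about as much as genes in general. Their median spread was 0.193, against 0.201 over the 15373 genes tested, and 15 of 31 lay above that median, where 50% of all genes do by construction. With every gene that had a count above 0 taken in, Grin3b among them, 1 receptor or scaffold gene lay above the median of all. The median spread of the receptor and scaffold genes was then 0.202. In 14 of 31 the highest library was at least 2 times the lowest, against 48.6% of all genes. By class the median spread was 0.266 for AMPA, 0.253 for metabotropic, 0.202 for NMDA, 0.171 for scaffold and 0.159 for kainate genes. The most variable were Gria2 (0.401), Grm5 (0.372) and Grik2 (0.365), and the least Dlg3 (0.0653), Grik4 (0.102) and Grin1 (0.121).

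The library m57 held the highest value of 17 of the 31 genes and the lowest of 0, whereas 12.2% of all genes tested were highest there. The library m101 held the lowest value of 8 of the 31, against 9.48% of all genes, and m61 of 6, against 25.5%. The summed markers of astrocytes (2712 CPM), oligodendrocyte precursors (352 CPM) and cholinergic neurons (43.4 CPM) were also highest in m57, and those of astrocytes (1573 CPM) and cholinergic neurons (10.8 CPM) lowest in m101. Markers of the subventricular zone (107 CPM) were lowest in m57, and those of vessels (81.9 CPM) lowest in m101. Their part in the receptor levels was not tested.

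**Figure D2:**
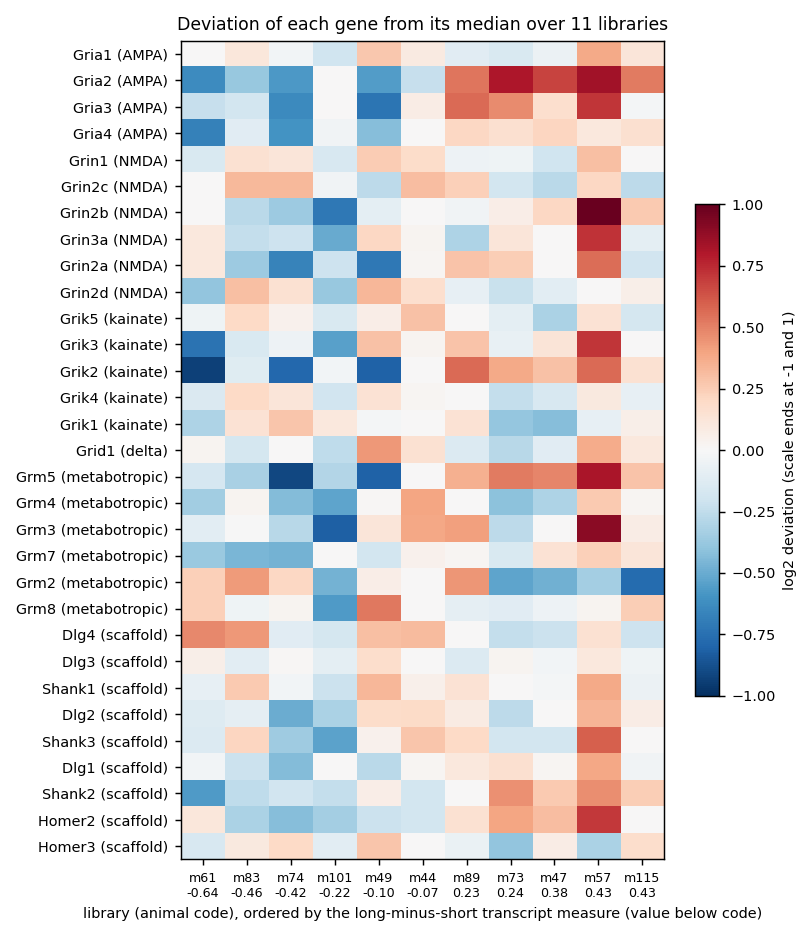
Log2 deviation of each of the 31 genes from its own median over 11 libraries, red above and blue below. Libraries run from the lowest to the highest value of the long-minus-short transcript measure, printed under each code; Gria2, Grik2 and Grm5 change from blue on the left to red on the right, and the m57 column is mostly red.

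With no genotype, the genes were set against 3 continuous measures that differ between the libraries. The first is a score of 10 markers of striatal projection neurons (from −0.50 in m74 to 0.67 in m44, mean log2 deviation), the second a score of 8 markers of cortical glutamatergic neurons (−0.40 in m115 to 0.30 in m89). The third contrasts long with short transcripts: it subtracts the median log2 deviation of the 10% of genes with the shortest exon sequence from that of the 10% with the longest, with the 33 genes left out (−0.64 in m61 to 0.43 in m57 and m115). The slope of each gene, in log2 units per 1 unit of a measure, was tested with edgeR's quasi-likelihood test over all genes with Benjamini-Hochberg adjustment. Over the 11 libraries the 3 measures had no relation past an adjusted p of 0.05. The cortical score and the length measure had r = −0.49 and rho = −0.58 (permutation adjusted p = 0.367 and 0.195, r = −0.57 without m115 and m89). The projection neuron score had r = 0.14 with the cortical score and −0.01 with the length measure (rho −0.02 and 0.10, permutation adjusted p = 0.965 for both r and 0.971 for both rho), and r was 0.19 and −0.11 without m44 and m89.

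Along the length measure 10 of the 31 genes rose and 0 fell. This share is to be read against 32.9% of all 15373 genes called, 18% higher and 14.9% lower. The shares of all genes still hold the longest and shortest genes, from which the measure is made, so they are partly set by construction. At an unadjusted p under 0.05 the count was 13 of the 31, against 42.7% of all genes. The median slope of the 31 was 0.30, against 0.03 over all genes, and 21 of 31 slopes were positive. Taken in either direction, 10 of 31 is close to the share of all genes. In this fit all 10 were rises, where all genes were called in both directions. With DESeq2 2 of the genes fell, and 1 or 2 fell without m101, m89, m74 or m57. All genes tested also have shorter exon sequences, with a median of 4355 bases against 9189 for the 31. The set as a whole was not tested, and the classes are given as a description.

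Of the AMPA genes 3 of 4 rose and Gria1 did not pass. Gria2 had a slope of 1.40 ± 0.19 (SE; edgeR adjusted p = 0.000208), the steepest of the 31, and the 5 libraries with the most Gria2 were the 5 with the highest length measure. Gria4 had 0.69 ± 0.15 (edgeR adjusted p = 0.00365) and Gria3 0.81 ± 0.25 (edgeR adjusted p = 0.0202). Gria1 had 0.08 ± 0.15 (edgeR adjusted p = 0.706). The Gria3 call was lost without m74 (slope 0.71, edgeR adjusted p = 0.0519) or m57 (0.68, 0.0633).

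Of the NMDA genes only Grin2b rose, with 0.74 ± 0.23 (edgeR adjusted p = 0.0253). The call was lost without m57 (slope 0.44, edgeR adjusted p = 0.0886), m83 (0.74, 0.0505) or m74 (0.70, 0.0528). Grin2a had 0.50 ± 0.24 (edgeR adjusted p = 0.130) and passed without m61 (0.87, 0.0171). Grin1 had 0.01 ± 0.15.

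Of the kainate genes Grik2 rose with 1.13 ± 0.24 (edgeR adjusted p = 0.00294) and Grik3 with 0.72 ± 0.22 (edgeR adjusted p = 0.0208), while Grik1, Grik4 and Grik5 had slopes of −0.19, −0.10 and −0.16 that did not pass. The Grik3 call was lost without m61 (slope 0.55, edgeR adjusted p = 0.0964) or m57 (0.53, 0.0808). Of the metabotropic genes Grm5 rose with 1.07 ± 0.24 (edgeR adjusted p = 0.00417) and Grm7 with 0.56 ± 0.13 (edgeR adjusted p = 0.00432). Grm2 had the lowest slope of the 31, −0.69 ± 0.26 (edgeR adjusted p = 0.0537), and passed without m101 (−0.77, 0.0284) or m89 (−0.88, 0.00455). The Grm2 slope was −0.41 with the other 2 measures in the same fit (edgeR adjusted p = 0.128). Without m61 and m115 together it was −0.60 (edgeR adjusted p = 0.195).

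Of the scaffold genes Shank2 rose with 0.78 ± 0.13 (edgeR adjusted p = 0.00066) and Homer2 with 0.62 ± 0.20 (edgeR adjusted p = 0.0292). The Homer2 call was lost without m57 (slope 0.45, edgeR adjusted p = 0.104), m47 (0.61, 0.0567), m83 (0.59, 0.0681) or m74 (0.56, 0.0664). Dlg4 had −0.43 ± 0.18 (edgeR adjusted p = 0.0783) and passed without m101 (−0.48, 0.0465), m74 (−0.54, 0.0290) or m57 (−0.55, 0.0381). Dlg1 had 0.36 ± 0.14 (edgeR adjusted p = 0.0687) and passed without m61 (0.51, 0.0219). Shank1 had 0.09 and Dlg3 −0.00, and 0 of the 4 Dlg genes and 1 of the 3 Shank genes passed. The calls of Gria2, Gria4, Grik2, Grm5, Grm7 and Shank2 held with each library left out in turn. Of these, Gria2, Grm5 and Shank2 also passed within the 6 libraries of codes below 8 and within the 5 of codes above 8.

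**Figure D3:**
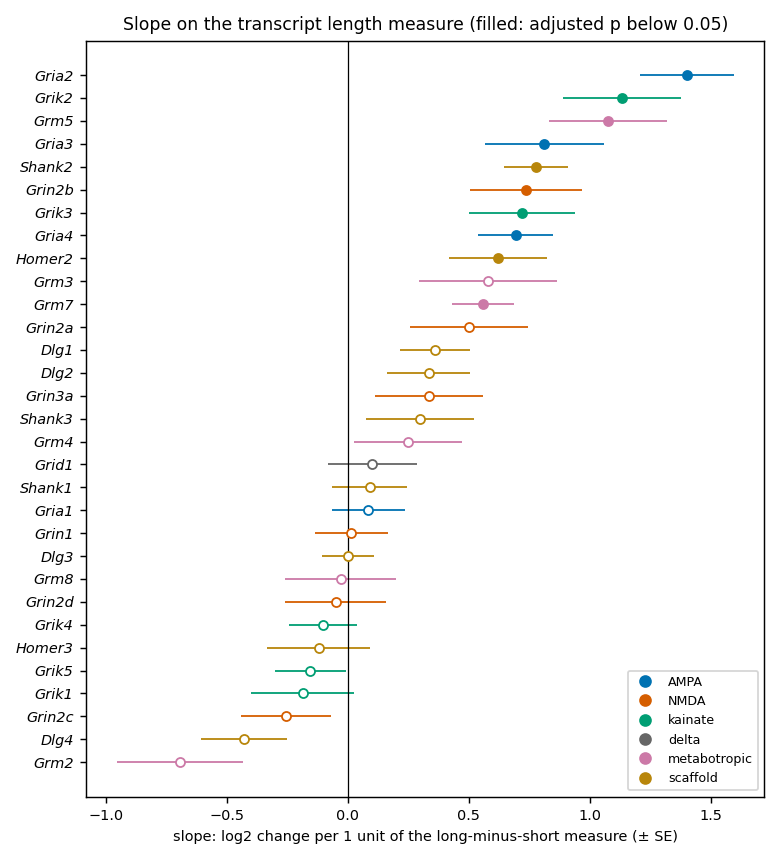
Slope of each of the 31 genes on the long-minus-short transcript measure, in log2 units per 1 unit, with its SE as a line. Filled points have an edgeR adjusted p under 0.05; they run from Grm7 at 0.56 to Gria2 at 1.40, and no gene with a negative slope is filled.

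**Figure D4:**
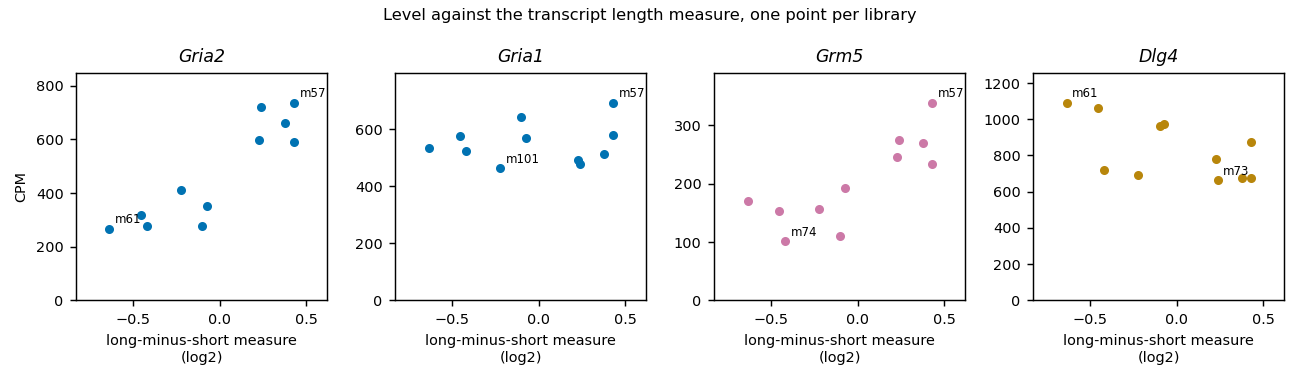
CPM of Gria2, Gria1, Grm5 and Dlg4 against the long-minus-short measure, 1 point per library, with the highest and lowest library named. Gria2 and Grm5 are higher in the 5 libraries on the right, Gria1 is level, and Dlg4 runs from 1090.4 CPM in m61 to 663 CPM in m73.

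Transcript length and base composition moved with these calls. The 10 genes called had a median exon length of 10508 bases and a median transcript GC content of 44.4%, against 6658 bases and 50.4% for the 21 not called. Over the 31 genes the slope had a Spearman rho of 0.50 with exon length and −0.59 with GC content, and over 15353 genes 0.57 and −0.41, as descriptions across genes of the same libraries. The measure is made from genes of the longest and shortest exon sequence, so the rho with exon length over all genes is partly built in. The 31 genes themselves have long exon sequences, with a median of 9189 bases against 4355 over all genes tested. Markers of other cells moved along the measure too: 3 of 5 interneuron, 2 of 6 oligodendrocyte, 2 of 5 microglia and 2 of 8 cortical markers fell, and 2 of 3 markers of oligodendrocyte precursors, 1 of 6 of astrocytes and 1 of 5 of the subventricular zone rose. Of the 3 cholinergic markers 0 were called, with a median slope of 1.01 and 2 at an unadjusted p under 0.05, and 0 vessel or thalamic markers were called. No marker was at the floor in every library, and the lowest was Lhx9, a thalamic marker that was at 0 in m89 (median 0.186 CPM). Of 10 projection neuron markers 0 were called. The part of transcript length, GC content or these cells in the receptor levels was not tested.

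Along the projection neuron score no receptor or scaffold gene passed the adjusted threshold, where 0.618% of 15363 genes did (0.599% higher and 0.0195% lower), while 5 of 31 had an unadjusted p under 0.05, against 7.67% of all genes. In simulated counts, slopes of size 0.5 on this score were called in 17% of cases. The lack of a call therefore does not show that levels are unrelated to the score. The receptor and scaffold slopes were positive in 27 of 31, with a median of 0.21, against −0.03 over all genes. Markers of other cells had positive slopes on this score too: 6 of 6 for oligodendrocytes (median 0.50), 5 of 5 for interneurons (0.47), 3 of 3 for cholinergic neurons (1.28, with 1 called), 6 of 6 for astrocytes (0.27), 3 of 3 for oligodendrocyte precursors (0.21), 5 of 5 for microglia (0.17) and 4 of 4 for vessels (0.11). The slopes were positive in 6 of 8 cortical, 1 of 2 thalamic and 0 of 5 subventricular zone markers. The part of these cells in the receptor slopes was not tested. Shank3 was nearest to the threshold, with 0.58 ± 0.15 (edgeR adjusted p = 0.113). It was at 262 CPM in m57, 209.98 in m44, 200.5 in m83 and 198 in m89, and at 157 in m61. It was lowest at 119 CPM in m101, and m49 (178 CPM) and m115 (173 CPM), whose scores were below 0, stood above m61. It passed with the other 2 measures in the same fit (slope 0.57, edgeR adjusted p = 0.0387) and with DESeq2 (0.57, DESeq2 adjusted p = 0.0139).

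The next were 2 metabotropic and 2 scaffold genes. Grm3 had 0.71 ± 0.22 (edgeR adjusted p = 0.228), Grm4 0.51 ± 0.16 (edgeR adjusted p = 0.227), Dlg4 0.41 ± 0.16 (edgeR adjusted p = 0.444) and Dlg2 0.34 ± 0.15 (edgeR adjusted p = 0.582). Gria2 had 0.02 ± 0.37 over the 11 libraries. The 5 libraries with a score above 0 are also those with label codes 9 to 14, and the meaning of these codes is not given, so the score and the codes cannot be told apart. Within the 6 libraries of codes below 8 and the 5 of codes above 8, where the score spans a smaller range and no gene was called, most of these slopes were steeper. They were 1.00 and 1.46 for Shank3, 1.19 and 2.14 for Grm3, 1.33 and 2.06 for Grm4, and 1.86 and 1.11 for Dlg2. Gria2 had 2.03 below 8 and 3.05 above 8, unlike its value over all libraries. Dlg4 had 0.21 below 8 and −0.93 above 8, so its direction turned. In each code set the library of lowest score, m74 and m61, also had the lowest length measure (−0.42 and −0.64). Below 8, m115 was highest on both, and above 8 the library of highest score, m44, had a length measure of −0.07. Whether the slopes within the code sets follow the length measure was not tested.

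**Figure D5:**
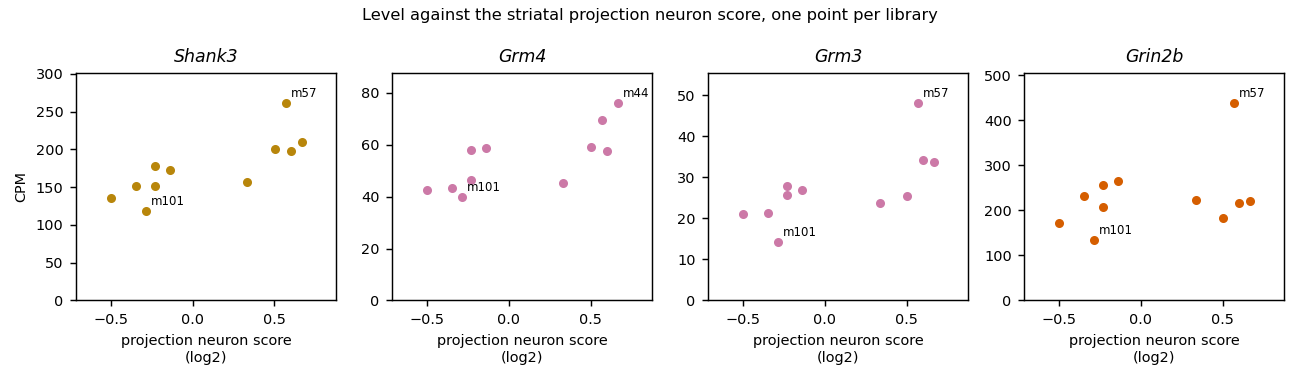
CPM of Shank3, Grm4, Grm3 and Grin2b against the projection neuron score, 1 point per library, with the highest and lowest library named. Shank3, Grm4 and Grm3 lie higher on the right with overlap, and Grin2b stands apart only in m57, at 439 CPM.

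Along the cortical score edgeR called 0 of 15365 genes, with 5.49% at an unadjusted p under 0.05, and DESeq2 called 2 genes, of which 0 were among the 31. Grm2 alone had an unadjusted p under 0.05, with a slope of 1.59 ± 0.39 (edgeR adjusted p = 0.708). With the other 2 measures in the same fit the Grm2 slope was 1.18, and it did not pass. The part of the cortical score and that of the length measure in Grm2 levels were not tested apart. Grm2 was at 26.2 CPM in m89, which had the highest cortical score, and at 11.04 CPM in m115, which had the lowest. The cortical score had the narrowest range of the 3 measures, 0.706 log2 units, and the SE of a slope on it reached 0.72 (Gria2). A count of 0 does not show that levels are unrelated to it.

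A list of 48 other genes of the glutamate synapse, all past the filter, was described beside the receptors. Their median spread was 0.183. Along the length measure 8 of the 48 rose and 4 fell, with a median slope of −0.04, against 18% and 14.9% of all genes. These counts are near the shares of all genes, and the slopes below describe single genes. Grip1, which codes for an AMPA receptor anchor, had 1.00 ± 0.19 (edgeR adjusted p = 0.00131), Neto1, an auxiliary subunit of kainate receptors, 0.99 ± 0.25 (edgeR adjusted p = 0.00793), and Dlgap2, a PSD-95 partner, 0.85 ± 0.21 (edgeR adjusted p = 0.00595). Those of lowest slope were Slc17a7 at −0.76 ± 0.23 (edgeR adjusted p = 0.0217) and the AMPA auxiliary subunit genes Cnih2 at −0.64 ± 0.14 (edgeR adjusted p = 0.00380) and Cnih3 at −0.49 ± 0.15 (edgeR adjusted p = 0.0246). Cnih2 and Cnih3 therefore fell along the measure on which Gria2, Gria3 and Gria4 rose. The measure itself contrasts long with short transcripts, and the part of transcript length in these opposite directions was not tested.

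Along the projection neuron score 2 of the 48 rose, against 0.599% of all genes. Gsg1l, an auxiliary subunit of AMPA receptors, ran from 52.6 CPM in m73 to 139 in m44, with 0.97 ± 0.17 (edgeR adjusted p = 0.0188). Baiap2, a partner of Shank proteins at the actin cytoskeleton, ran from 246 CPM in m115 to 443 in m44, with 0.66 ± 0.12 (edgeR adjusted p = 0.0258). The most variable of the list were Slc17a8, a vesicular glutamate transporter gene (0.397), Neto1 (0.358) and Gsg1l (0.350). The least were Cpt1c (0.0873), Cttn (0.0904) and Iqsec1 (0.0912).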

How the data were processed

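Poly(A) RNA of 11 nucleus accumbens shell punches was sequenced. Per the labels' protocols, a stranded kit was used on 200 ng of total RNA, with 12 PCR cycles. The deposited table holds the authors' raw counts of reads per gene, not normalized. The tools named in the submitters' processing notes are the counter HTSeq 0.6.1, the aligners TopHat2 2.0.14 and Bowtie2 2.1.0, and bcl2fastq 2.17.1.14, on mm10. Whether the counting used strand, and on which annotation, is not given in the sources used here. Overlapping genes are therefore uncertain. Names, coordinates and exon lengths came from GENCODE M21, which matched 52403 of 52550 identifiers, and promoters from RefSeq. The 147 unmatched identifiers held at most 0.0214% of the counts of a library.

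From these counts, CPM on TMM-scaled library sizes (factors 0.908 to 1.06), the biological coefficient of variation (intercept only, no sharing between genes) and slopes on 3 measures were computed with edgeR 4.0.16 in R 4.3.3 for 15373 genes, with DESeq2 1.42.0 as an alternative. A score averages over its markers log2(CPM + 0.5) less the median of the marker, and its own markers were left out of the counts of genes called on it. The longest and shortest genes that make the length measure were kept in the counts on that measure. Relations between measures were tested two-sided with 100000 permutations, adjusted over 3. The other steps ran in Python 3.11.15 (matplotlib 3.10.9 for drawing, scipy 1.17.1 and numpy 2.4.6 for values, pandas 2.3.3 for tables). The steps across genes were tested on simulated counts, in which all genes had the same spread. True slopes of size 1 were called in 76% of cases on the projection neuron score, 0% on the cortical score and 67% on the length measure. True slopes of size 0.5 were called in 17%, 1% and 7%. Floors cover counting error only. The p-values of slopes weigh a slope against the remaining spread between these 11 libraries, and the permutation p-values concern only the relations between measures.

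All libraries were left without a group, since the labels give no genotype. The 33 genes, the 48 other synapse genes, the marker lists, the measures and the tests were chosen with earlier results of these data known. All 33 genes are named. Of the other synapse genes, the 3 of highest and the 3 of lowest slope among those past an adjusted p of 0.05 in each fit, and the 3 most and 3 least variable, are named. The slopes within label codes below 8 and above 8, and the levels on the longest transcript, were added after the data were seen. Lhx9 was named after its values were seen.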

Additional observations from a re-analysis of the deposited data

How the results depend on the processing

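Length-measure calls that changed without a single library are given beside each gene. Without m61 and m115 together the Grik3 call was lost (edgeR adjusted p = 0.0645) and Dlg1 passed (0.0151). Calls were lost within codes below 8 for Grik2 (edgeR adjusted p = 0.0506), Grm7 (0.115), Gria3 (0.122) and Grik3 (0.629), and within codes above 8 for Grm7 (0.0545), Gria4 (0.0861), Grin2b (0.107) and Homer2 (0.180). These sets hold fewer libraries. The number of receptor and scaffold genes rising along that measure was 10, and 6 to 11 with each library left out in turn (6 without m57). It was 6 within the 6 libraries of codes below 8 and 7 within the 5 of codes above 8. The number falling was 0, and 2 with DESeq2 (Grm2 and Dlg4), 2 without m101 and 1 without m89, m74 or m57 (0 to 2 with each library left out). All genes called numbered 5059, 4035 to 5138 with each library left out, and 2714 and 1829 within codes below 8 and above 8. All 10 rising genes kept a positive slope in both code sets, from 0.22 for Grik3 below 8 to 1.64 for Grm5 below 8. Scaling moved the median length slope of all genes from 0.03 to 0.08 (library totals) and 0.01 (DESeq2 size factors).

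On the projection neuron score, 95 genes were called, and 282 with the other 2 measures in the fit, 308 with DESeq2, 20 without m44 and m89, 0 within codes below 8 and 0 within codes above 8. With each library left out the count was 41 to 126, at 41 without m44, 53 without m73, 55 without m101 and 58 without m57. Receptor and scaffold genes called numbered 0, with 0 for each library left out, and 1 (Shank3) in the fit with the other measures and with DESeq2. The Dlg4 slope reversed to −0.93 within codes above 8. The cause was not tested. On the cortical score DESeq2 called 2 genes where edgeR called 0, with or without any 1 library.

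Genes above the median spread numbered 15, 13 to 17 with each library left out, and 1 when all 31323 genes with a count above 0 were used. The median spread of the receptor and scaffold genes themselves was 0.193 in the main setting and 0.202 in that one, which takes in Grin3b. What raised the median of all genes was not tested. Other scaling moved the median CPM of a gene by at most 5.59%. Depth limits Grin3b and Grm6. No paired analysis was possible because the labels give no groups.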
